A study of Homo sapiens with 8 samples.

Results

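The genes described here are 46 receptors, regulators and targets of the Wnt pathway, chosen by symbol among 34792 genes measured by RNA-seq in A673/TR/shFEZF1 cells. By role they are 5 Wnt ligands, 2 genes for acylation and secretion of the ligands, 10 Frizzled receptors, 2 co-receptors, 3 receptors of R-spondins, 2 ubiquitin ligases that act on Frizzled receptors, 6 secreted and membrane inhibitors, 3 Dishevelled genes, 5 genes of beta-catenin and its destruction complex, 2 Dishevelled antagonists, 4 TCF and LEF factors and 2 other targets. A673 cells are a line from an Ewing sarcoma and express the EWSR1-FLI1 fusion. A673/TR cells are 1 clone of it that makes the tetracycline repressor throughout, and A673/TR/shFEZF1 cells also carry an shRNA against the transcription factor FEZF1 that doxycycline switches on. All 8 cultures carried both constructs: 4 were kept untreated (controls) and 4 were given 1 µg/mL doxycycline for 72 h, 1 of each kind from the polyclonal population (bulk in the labels) and from clones 3, 5 and 6. The study picked its clones for strong loss of FEZF1 protein. No culture without the shRNA was given doxycycline among the libraries analysed here, so the drug and the shRNA cannot be told apart.

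Wnt proteins are lipid-modified ligands that leave the cell with the help of PORCN, which adds the lipid, and WLS, which carries them to the surface. In the canonical pathway a ligand brings a Frizzled receptor together with LRP5 or LRP6, Dishevelled is recruited, and the complex of AXIN1, APC and GSK3B no longer marks beta-catenin (CTNNB1) for destruction. Beta-catenin then works with TCF and LEF factors at target genes, among them the feedback inhibitors AXIN2, NKD1, NOTUM, APCDD1 and ZNRF3. R-spondins, held by LGR4, LGR5 or LGR6, keep ZNRF3 and RNF43 from removing Frizzled receptors from the membrane. In Ewing sarcoma the pathway is known to be active in some cells of a tumour and not in others, and EWSR1-FLI1 is known to bind repeats of GGAA.

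Sequences are shown for the member of highest level, which holds such a repeat, for the member with the clearest TCF and LEF letters, and for the member with the largest change among those called with doxycycline. APCDD1 lies on chromosome 18 of GRCh38 from 10454635 to 10489949, and the stretch chr18:10462547-10462746 of its intron is given on the plus strand, with TTCC (GGAA on the other strand) in capitals wherever it is repeated. SP5, a zinc finger gene widely used as a readout of beta-catenin, is given by its RefSeq promoter window (GRCh38.p14, chr2:170715087-170715386, plus strand, 250 bases before and 50 from the start), with CTTTGAT and CTTTGAA in capitals on either strand. SFRP2, which encodes a secreted protein that binds Wnt ligands, is given by the same kind of window (chr4:153789034-153789333, minus strand), which held neither of these letters and so has no capitals.
APCDD1 intron repeat: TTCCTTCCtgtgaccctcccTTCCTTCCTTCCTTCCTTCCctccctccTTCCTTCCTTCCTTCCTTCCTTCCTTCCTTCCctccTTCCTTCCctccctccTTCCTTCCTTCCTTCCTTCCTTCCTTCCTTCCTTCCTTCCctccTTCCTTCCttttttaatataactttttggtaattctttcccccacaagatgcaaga
SP5 promoter: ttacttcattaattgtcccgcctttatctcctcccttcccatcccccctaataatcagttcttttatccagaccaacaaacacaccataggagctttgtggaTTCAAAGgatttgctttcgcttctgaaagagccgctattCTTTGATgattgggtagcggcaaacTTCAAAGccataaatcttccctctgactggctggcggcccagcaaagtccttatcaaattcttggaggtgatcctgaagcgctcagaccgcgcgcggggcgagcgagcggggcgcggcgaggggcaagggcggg
SFRP2 promoter: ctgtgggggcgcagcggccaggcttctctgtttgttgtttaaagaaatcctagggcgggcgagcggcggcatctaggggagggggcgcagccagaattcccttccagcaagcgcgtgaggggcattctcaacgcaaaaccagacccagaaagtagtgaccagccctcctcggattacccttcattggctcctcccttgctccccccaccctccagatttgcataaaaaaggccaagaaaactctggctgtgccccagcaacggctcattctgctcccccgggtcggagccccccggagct
The stretch in APCDD1 held 29 TTCC units in runs of at least 2, and its longest run had 10 units, from 10462647 to 10462686. Runs of at least 4 GGAA units on either strand lay inside 5 of the 46 members (APCDD1, GSK3B, LGR5, LRP6 and TCF7L1) and inside 13.1% of 15977 genes tested with a position. Runs of at least 8 units lay inside 3 of the 46 (15 units in LRP6, 12 in GSK3B and 10 in APCDD1) and inside 5.68% of the genes tested. Promoter windows were at hand for 30 of the 46 members, and CTTTGAT or CTTTGAA stood in 1 of them, that of SP5, with 3 matches. Over the promoters of 12379 genes tested the share was 4.11%, and over all 27305 windows it was 6.98%. GGAAGGAA stood in 0 of the 30 windows and in 3.39% of those of the genes tested. Among the members called with doxycycline below, FZD1, LGR4, SFRP2 and APCDD1 had a window, and none of these 4 held any of these letters.

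Between 26719886 and 42422421 reads were assigned to transcripts in each library, and 89.9% to 91.1% of them were matched to a gene symbol. FEZF1 was at 70.5 to 107 CPM (counts scaled to library size after TMM) in the controls and at 36.4 to 60.8 CPM with doxycycline, lower in 4 of 4 pairs (log2 fold change -0.81, standard error 0.073, adjusted p = 0.00594). FEZF1-AS1, which overlaps FEZF1 on the other strand, was higher in 4 of 4 pairs (0.45, adjusted p = 0.0190), and the strand setting of the counting is not given in the sources used here. All 9 Ewing sarcoma markers were at 1 TPM or more in the controls (TPM is per length, so that genes can be set side by side). With doxycycline NR0B1 (log2 fold change 0.67), NKX2-2 (0.30) and CCK (1.16) of these rose, and LIPI fell by 0.30. No change is given here for the others of the 9. In the controls the leukocyte markers were at 0 to 0.392 TPM, the epithelial at up to 0.573 and the endothelial at up to 0.0881. The 4 fibroblast markers summed to 51.9 to 355 TPM in the controls and 59.1 to 388 TPM with doxycycline, with COL3A1 alone at 163 TPM in the controls. Only 2 of these 4 averaged 1 TPM or more in the controls, the lowest at 0.819 TPM, and 3 did with doxycycline. With doxycycline 1 epithelial marker, EPCAM, was at 1.41 TPM. The part of these markers in the results below was not tested, and in bulk RNA fewer cells of a kind and less RNA per cell cannot be told apart. The control library of clone 5 was deposited with its rows in another order and its decimals in another form than the other 7. Member calls are therefore also given with each pair left out, mostly as ranges. The counts of calls without the pair of clone 5 are given near the end.

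A673/TR/shFEZF1 cells without doxycycline expressed receptors, transducers and inhibitors of the pathway at every step but few of its ligands. Of the 46 members 33 averaged 1 TPM or more in the 4 controls, 7 lay between 0.1 and 1 TPM (WNT11, NKD1, FZD5, SFRP1, LEF1, WNT10B and NOTUM) and 6 were below 0.1 TPM (TNFRSF19, LGR6, FZD10, WNT5B, RNF43 and SP5). APCDD1, a membrane glycoprotein that inhibits the pathway, came first at 186 ± 19.99 TPM (SD, n = 4), followed by CTNNB1 at 126 ± 11.8 and WLS at 108 ± 11.6 TPM. Going down the order of levels, a member lay above the next by more than the sum of their SDs in 4 places, after APCDD1, WLS, GSK3B and AXIN2.

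**Figure D1:**
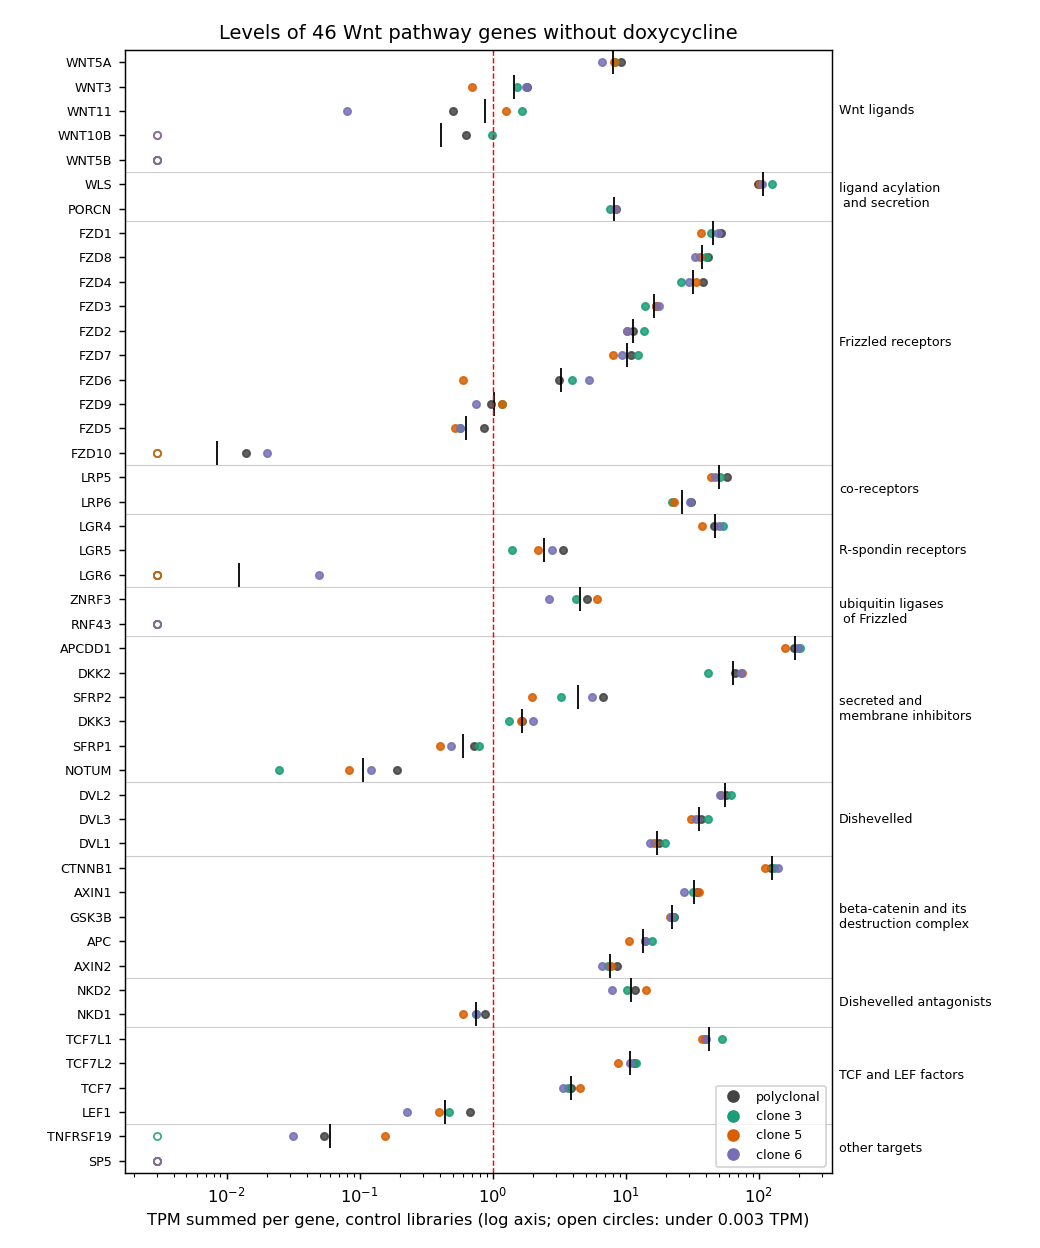
Level of each of the 46 genes without doxycycline, by role. The x axis is TPM summed per gene on a log scale, filled points are the 4 control libraries by origin, open circles are libraries under 0.003 TPM drawn at the left edge, black bars are means over the 4 controls, and the dashed line marks 1 TPM. APCDD1, CTNNB1 and WLS lie at the right, the 3 highest means, and RNF43, SP5 and WNT5B are at the left edge in all 4.

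Of the ligands, WNT5A, best known for signalling without beta-catenin, was the most abundant at 8.08 ± 1.05 TPM, and WNT3, a canonical ligand, was at 1.46 ± 0.521 TPM. WNT11 and WNT10B averaged 0.879 and 0.406 TPM, with WNT10B at 0 in 2 of the 4 controls and 58.1% of the reads behind the authors' mean matched for it. WNT5B was listed at 0 in all 4 controls, with only 27.2% of the reads behind the authors' mean for this gene matched to its symbol, so its level is uncertain. The highest of 14 other Wnt ligands, WNT10A, was at 0.387 TPM, and the highest of 4 R-spondins, RSPO2, at 0.184 TPM. Of the genes that equip a cell to send a ligand, WLS stood far higher at 108 TPM. PORCN, at 8.20 ± 0.395 TPM, was level with WNT5A.

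Among the Frizzled receptors FZD1 led in the controls at 45.6 ± 6.71 TPM, with FZD8 at 37.7 ± 3.53 and FZD4 at 31.8 ± 5.08 TPM next. The lead of FZD1 over FZD8 was within the sum of their SDs. With doxycycline FZD8 averaged more, 44.5 ± 9.56 against 33.9 ± 4.92 TPM for FZD1, except in clone 6 (30.7 against 33.8 TPM). FZD1, FZD8 and FZD4 made up 70.5% to 74.8% of the summed Frizzled TPM in the controls and 68.5% to 75.9% with doxycycline. FZD3 was at 16.4, FZD2 at 11.4, FZD7 at 10.2, FZD6 at 3.24 and FZD9 at 1.02 TPM. FZD5 stood at 0.629 and FZD10 at 0.00853 TPM. Both co-receptors were expressed, LRP5 at 49.98 ± 6.05 TPM and LRP6 at 26.6 ± 4.65 TPM, the latter with 69.8% of the reads behind the authors' mean matched. Among the R-spondin receptors LGR4 stood at 47.0 ± 6.89 TPM, LGR5 at 2.44 ± 0.844 TPM and LGR6, with 72.2% of its reads matched, at 0.0124 TPM. The ubiquitin ligase ZNRF3 was at 4.50 ± 1.45 TPM, while RNF43, its paralogue, was listed at 0 in all 4 controls. Only 54.2% of the reads of ZNRF3 and 16.6% of those of RNF43 were matched, so these 2 levels are lower bounds of what the transcripts in the files hold. The authors' own mean was 941 normalized counts for ZNRF3 and 1.05 for RNF43, so RNF43 was near 0 there too.

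The inhibitors ranged from NOTUM at 0.105 TPM to APCDD1. Below APCDD1 came DKK2, a Dickkopf protein that binds LRP5 and LRP6, at 63.8 ± 15.4 TPM. SFRP2 was at 4.39 ± 2.15, DKK3, a divergent member of the Dickkopf family, at 1.66 ± 0.284 and SFRP1 at 0.600 ± 0.188 TPM. NOTUM is an enzyme that removes the lipid of Wnt proteins. The Dishevelled genes, which relay the signal from Frizzled, were led by DVL2 at 55.3 ± 4.97 TPM, with DVL3 at 35.7 ± 4.50 TPM from 66.3% of its reads. CTNNB1 stood above the other members of its group, with AXIN1 at 32.4, GSK3B at 22.4, APC at 13.6 and AXIN2 at 7.61 TPM. Of the Dishevelled antagonists NKD2 was at 11.04 ± 2.68 TPM and NKD1 at 0.745 ± 0.115 TPM. TCF7L1, a factor known mainly as a repressor, was the most abundant of the TCF and LEF factors at 42.5 ± 7.30 TPM, followed by TCF7L2 at 10.8 ± 1.45 and TCF7 at 3.88 ± 0.478 TPM, with LEF1 last at 0.442 ± 0.186 TPM. Of the remaining targets TNFRSF19 was at 0.0603 TPM, and SP5 was listed at 0 in all 4 controls.

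With doxycycline SFRP2 and LGR4 rose, and DKK2, DKK3, APCDD1 and FZD1 fell. They were 6 of the 39 members tested (15.4%), against 7.63% of all 15993 genes tested, with 2 members higher (background 3.73%) and 4 lower (background 3.91%). The other 7 members (WNT5B, FZD10, LGR6, RNF43, NOTUM, SP5 and TNFRSF19) did not pass the filter on reads and were not tested. WNT5B had 106 matched reads, up to 69 in a library, but a mean of 0 CPM in the controls. Only 27.2% of the reads behind the authors' mean were matched for it. The test was edgeR's quasi-likelihood test with the cultures paired by origin and Benjamini-Hochberg adjustment over all genes tested, and every adjusted p below comes from it. Over the 39 members 14 log2 fold changes were positive and 25 negative, with a median of -0.04 against 0.0042 over all genes. All 4 control values lay clear of all 4 doxycycline values in 2 members, FZD1 and DKK3, where 4.94% of all genes did so. Of the 39 members 13 moved 1 way in 4 of 4 pairs, where 33.3% of all genes did so. The calls rest on the pairing: without origin in the model 0 of the 6 passed (adjusted p 0.414 to 0.619), and DESeq2 without origin, an alternative chosen after seeing the data, also called 0.

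**Figure D2:**
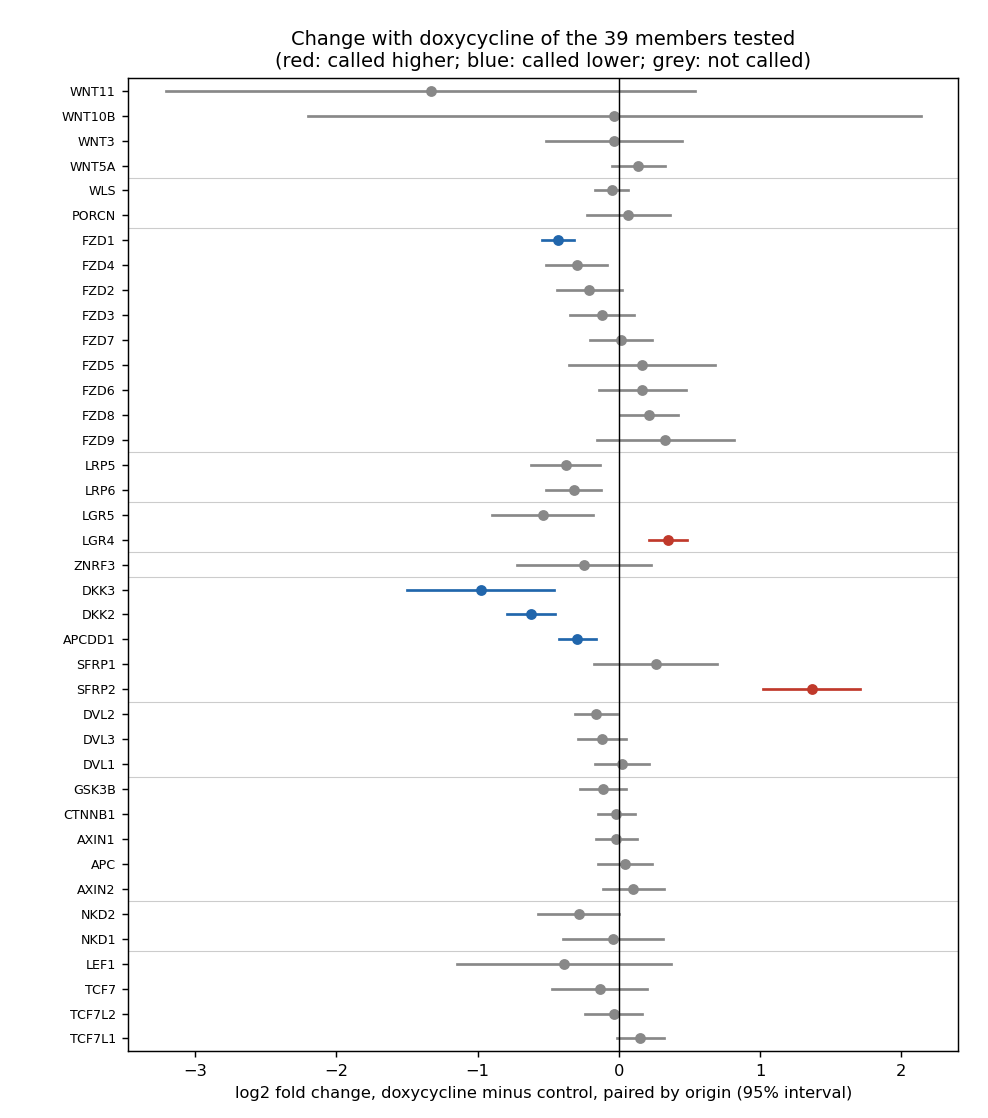
Change with doxycycline of the 39 members tested, by role. Points are log2 fold changes (doxycycline minus control) from the paired fit over 4 origins, bars are 95% intervals, red and blue mark the members called higher and lower at an adjusted p under 0.05, and grey marks the rest. SFRP2 lies farthest to the right at 1.37, DKK3 is the lowest of the called members at -0.98, and the intervals of WNT11 and WNT10B are the widest.

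Among the inhibitors, 4 of the 5 tested were called, 1 higher and 3 lower, against 7.63% of all genes. Of 11 other secreted and membrane inhibitors outside the members, 3 were tested and 0 called. AXIN2, NKD1 and ZNRF3, feedback inhibitors grouped here by other roles, were not called either. SFRP2 (chromosome 4, 153780591 to 153789083), whose promoter is printed above, was at 7.11, 3.72, 2.29 and 6.55 CPM in the controls of the polyclonal population and clones 3, 5 and 6. With doxycycline the same origins were at 14.7, 9.36, 5.51 and 22.96 CPM. Every origin was higher with doxycycline, although the groups overlapped because the origins themselves differed. The log2 fold change was 1.37 (standard error 0.149, adjusted p = 0.00664), and leaving out each pair in turn gave 1.21 to 1.48 with adjusted p between 0.0137 and 0.0330. Its level per length went from 4.39 ± 2.15 TPM in the controls to 11.5 ± 6.11 TPM with doxycycline.

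DKK2 (chromosome 4, 106921802 to 107036313) was at 135, 88.8, 164 and 163 CPM in the controls. It was at 102, 59.8, 94.0 and 99.4 CPM with doxycycline. Clone 3 was the lowest origin in both groups, each origin was lower with doxycycline, and the groups overlapped. DKK2 fell by 0.62 on the log2 scale (standard error 0.0729, adjusted p = 0.0073), and without each pair in turn the adjusted p was 0.0125 to 0.0396. DKK3 (chromosome 11, 11963036 to 12009745) was at 1.89 to 2.98 CPM in the controls and at 0.797 to 1.51 CPM with doxycycline, with no overlap. It fell by 0.98 (standard error 0.225, adjusted p = 0.0425), with 24 to 87 reads per library, and the call was lost without any 1 of the 4 pairs (adjusted p 0.0620 to 0.161).

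APCDD1, the most abundant member, was at 387, 457, 365 and 461 CPM in the controls. With doxycycline it was at 317, 343, 328 and 369 CPM. All origins were lower with doxycycline, by least in clone 5, and the highest doxycycline value lay just above the lowest control value. It fell by 0.29 on the log2 scale (standard error 0.0568, adjusted p = 0.0255), a call lost without any 1 pair (adjusted p 0.0603 to 0.0866). SFRP1, which binds Wnt ligands as SFRP2 does, was higher in 4 of 4 pairs but did not pass (0.26, adjusted p = 0.443).

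Of the Frizzled receptors, 1 of 9 tested was called, against 7.63% of all genes. FZD1 (chromosome 7, 91264433 to 91271326) was at 203, 183, 157 and 214 CPM in the controls. The doxycycline cultures were at 155, 138, 116 and 151 CPM, each below every control. FZD1 fell by 0.43 (standard error 0.0494, adjusted p = 0.0073), with adjusted p between 0.0204 and 0.0394 when each pair was left out. FZD4 was lower in 4 of 4 pairs without passing (-0.30, adjusted p = 0.0981), and FZD8 had a log2 fold change of 0.21 (adjusted p = 0.189). The other 6 tested lay between -0.21 for FZD2 and 0.33 for FZD9. Summed over the family, Frizzled TPM was 144 to 175 in the controls and 119.6 to 159 with doxycycline, ranges that overlapped.

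The 2 co-receptors of Frizzled missed the threshold. LRP6 was at 175, 133, 141 and 185 CPM in the controls and at 148, 117, 122 and 118 CPM with doxycycline. It was lower in 4 of 4 pairs (log2 fold change -0.32, standard error 0.0834, adjusted p = 0.0585). LRP5 was at 164, 155, 134 and 149 CPM in the controls and at 164, 95.3, 96.02 and 118 CPM with doxycycline. The polyclonal population had nearly the same LRP5 level in both cultures while the 3 clones were lower, and the log2 fold change was -0.38 (standard error 0.104, adjusted p = 0.0689). Without the polyclonal pair it was -0.51 (adjusted p = 0.0291). DESeq2 with the pairing called LRP5, LRP6 and FZD4 lower in addition to the same 6 members.

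The R-spondin receptors went in opposite directions, with 1 of the 2 tested called (7.63% of all genes were). LGR4 (chromosome 11, 27365961 to 27472790) was at 136, 166, 119.9 and 163 CPM in the controls. With doxycycline it was at 179.5, 219, 158 and 185 CPM, higher in every origin although the groups overlapped. LGR4 rose by 0.35 (standard error 0.0577, adjusted p = 0.0180). The call was lost without the polyclonal pair (adjusted p = 0.0627), without clone 3 (0.0556) and without clone 5 (0.0991). Both LGR4 transcripts in the files took part, NM_018490.5 going from 20.8 ± 2.64 to 26.6 ± 4.84 TPM and NM_001346432.1 from 26.2 ± 5.42 to 33.4 ± 6.43 TPM. LGR5, at far lower levels of 3.81 to 8.61 CPM in the controls and 3.46 to 5.83 CPM with doxycycline, was lower in 4 of 4 pairs and did not pass (-0.54, adjusted p = 0.0773).

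**Figure D3:**
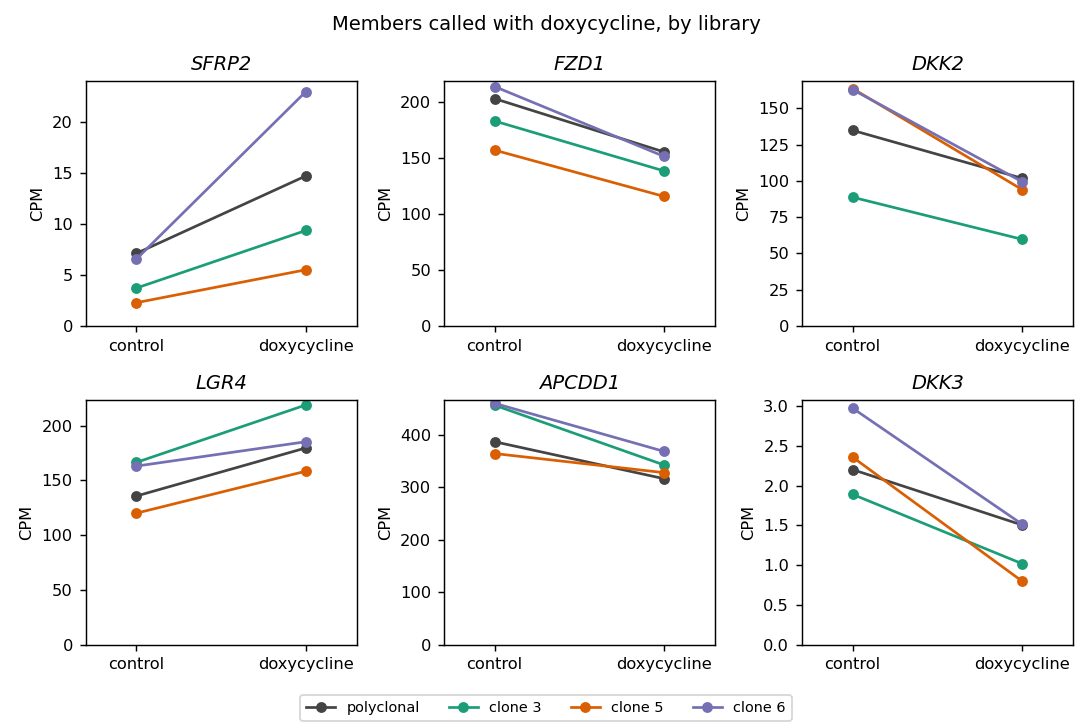
The 6 members called with doxycycline, by library. The y axes are CPM from 0, each line joins the control and the doxycycline culture of 1 origin, and colours mark the origins. All 4 lines go up for SFRP2 and LGR4 and down for FZD1, DKK2, DKK3 and APCDD1, and the spread between origins is largest relative to the level for SFRP2.

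The Dishevelled genes, the destruction complex, the Dishevelled antagonists and the TCF and LEF factors held 14 members tested. None of them passed the test, where 7.63% of all genes did, so 0 of 14 is near the background. CTNNB1 had a log2 fold change of -0.02 with a 95% interval of -0.15 to 0.11, and AXIN2, the feedback gene most often used as a readout of beta-catenin, 0.10 with an interval of -0.11 to 0.32. AXIN2 was at 20.1, 18.2, 19.4 and 17.0 CPM in the controls and at 20.3, 22.2, 22.6 and 15.8 CPM with doxycycline, higher in 3 of 4 pairs. For LEF1, at 9 to 39 reads per library, the interval of -1.15 to 0.37 was wide, and NKD1 had 0.31 as its upper and -0.40 as its lower limit. TCF7L1 was higher in 4 of 4 pairs (0.15, adjusted p = 0.235) and GSK3B lower in 4 of 4 (-0.11, adjusted p = 0.367). Of the 4 ligands tested none passed, nor did PORCN, WLS or ZNRF3. WNT5A had a log2 fold change of 0.14 (interval -0.05 to 0.33). WNT5B, not tested, was at 0 in 6 libraries and at 1.15 and 2.01 CPM in the doxycycline cultures of the polyclonal population and clone 3.

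Genes of the pathway beyond the 46 were taken from a list of 85 by role. Of these 60 were tested and 8 were called (13.3%, against 7.63% of all genes), 5 higher (background 3.73%) and 3 lower (background 3.91%), with a median log2 fold change of -0.02 against 0.0042 over all genes. ROR2, a receptor tyrosine kinase for WNT5A, had the largest change of the 8. It was at 36.2 to 55.4 CPM in the controls and 14.5 to 36.0 CPM with doxycycline, fell by 0.87 (adjusted p = 0.00867) and did not overlap between groups. VANGL2 (-0.39, adjusted p = 0.0179) and CELSR2 (-0.40, adjusted p = 0.0241), membrane proteins of planar cell polarity, fell as well. BAMBI, a TGF-beta pseudoreceptor also used as a Wnt target (0.53, adjusted p = 0.0192), and the homeobox gene MSX1 (0.53, adjusted p = 0.0339) rose. So did DACT1, which binds Dishevelled (0.60, adjusted p = 0.0342), FRAT2, which binds GSK3 (0.54, adjusted p = 0.0458), and BTRC, the F-box protein that recognises beta-catenin (0.29, adjusted p = 0.0427). None of the 14 nuclear cofactors tested was called, which is near the 7.63% of all genes. Some were tested on part of their reads. The share of the reads behind the authors' mean that was matched was 34.3% for BCL9, 36.1% for CTBP1, 49.5% for CTBP2 and 68.9% for BCL9L. Without origin in the model edgeR called none of these 8 genes, and DESeq2 called 1, BAMBI (adjusted p = 0.00544).

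Some members also differed among the 4 origins, that is the polyclonal population and clones 3, 5 and 6. An F test of origin in the same fit, with treatment as a term, called 11 of 39 members (28.2%), against 39.4% of all genes. The order of these shares depended on the fit. DESeq2 with the same terms called 20 of 39 members and 6713 of 15993 genes, a larger share of the members. DESeq2's size factors in edgeR gave 13 members and 6248 genes, again a smaller share of the members. FZD6, a receptor tied mainly to planar polarity, separated most. It was at 6.45, 8.63, 1.34 and 11.98 CPM in the controls of the polyclonal population and clones 3, 5 and 6, and at 6.42, 10.2, 1.86 and 12.5 CPM with doxycycline. Clone 5 was lowest and clone 6 highest in both groups, 7.63-fold apart in the mean of their cultures (adjusted p = 0.000433). SFRP2 spanned 3.79-fold between clones 5 and 6 (adjusted p = 0.00285) and DKK2 spanned 1.77-fold between clones 3 and 6 (adjusted p = 0.00365).

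**Figure D4:**
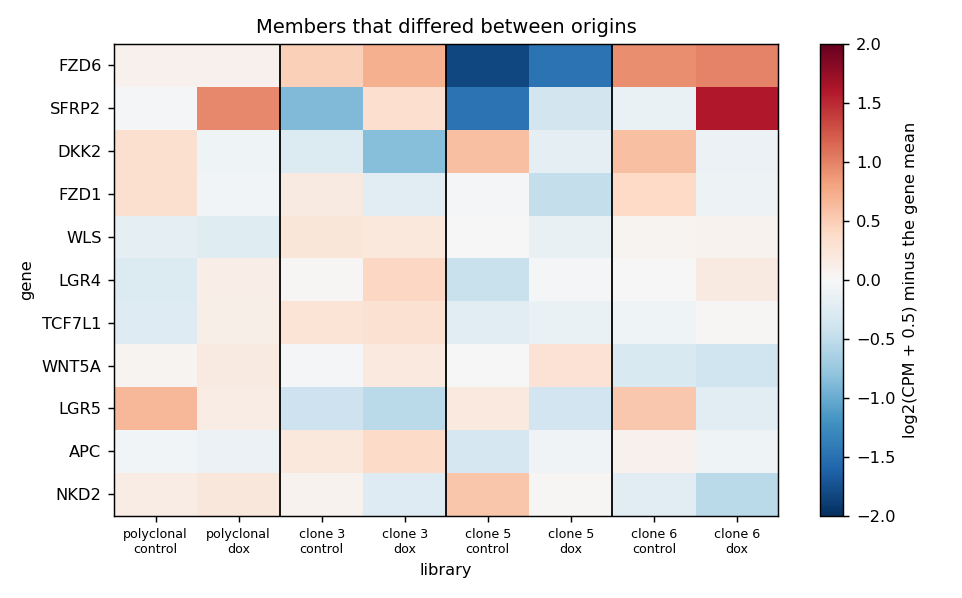
The 11 members that differed between origins. Columns are the 8 libraries in pairs by origin, rows are genes by adjusted p, and the colour is log2(CPM + 0.5) minus the mean of the gene over the 8 libraries. FZD6 is dark blue in both clone 5 libraries, and SFRP2 is redder with doxycycline than without in every origin.

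Of the other members called, FZD1 ranged over 1.34-fold between origins (adjusted p = 0.010), with clone 5 lowest, and LGR4 over 1.38-fold (adjusted p = 0.0143), with clone 3 highest. WLS ranged over 1.36-fold (adjusted p = 0.0111) and TCF7L1 over 1.38-fold (adjusted p = 0.0301), both highest in clone 3. WNT5A was at 25.2 and 23.7 CPM in the cultures of clone 6 and at 30.7 to 38.3 CPM in the other 6 (adjusted p = 0.0305). LGR5 (1.99-fold, adjusted p = 0.0402), APC (1.41-fold, adjusted p = 0.0406) and NKD2 (1.65-fold, adjusted p = 0.0425) were called as well. AXIN2 did not differ beyond the test between origins (1.28-fold, adjusted p = 0.167), nor did DKK3 (1.54-fold, adjusted p = 0.298). Each origin had 2 cultures, 1 per treatment, which stand as its replicates here. Of the 60 other pathway genes tested 25 were called between origins (41.7%).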

How the data were processed

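RNA from 8 cultures was sequenced by the study as TruSeq stranded mRNA libraries, and the authors ran Salmon against a GRCh38 transcriptome. The deposited files hold, for each of 158867 transcripts, estimated counts, TPM, length and effective length (deposited as other columns, in bases). A further deposited table by the authors holds a mean signal of normalized counts per gene, used only to see how many reads of a gene were matched, and the authors' own fold changes and p-values, which were not used. The submitters' processing notes name DESeq2 2.11.40.6.

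Transcripts were matched to symbols by RefSeq accession, and estimated counts were summed to 34792 genes and rounded. Genes passing filterByExpr were normalized by TMM and fitted with edgeR 4.0.16 (quasi-likelihood test, R 4.3.3) with treatment and origin, Benjamini-Hochberg adjusted over 15993 genes, threshold 0.05. The standard error was derived from the fitted change and its F statistic. Origin was tested in the same fit with treatment as a term. Levels between genes are TPM, levels within a gene CPM after TMM. With a floor of 3 reads, a library listing 0 allows up to 0.0786 to 0.123 CPM (counting error only). DESeq2 1.42.0, no pairing, other size factors, a looser filter, an effective length offset and leaving out each pair were the alternatives. Both fits were checked on simulated counts with planted changes. Promoter windows and gene positions came from RefSeq tables (GRCh38.p14) and repeats from the GRCh38 genome. Sequences and figures were handled in Python 3.11.15 (pandas 2.3.3, numpy 2.4.6).

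The cultures of 1 origin come from the same cells, so origin pairs them. Deviations of control and doxycycline cultures from their group means correlated at 0.406 to 0.590 for the same origin and at -0.395 to 0.179 for different origins. Nothing says that cultures of 1 origin were repeated. The p-values of the paired fit rest on the spread left in these cultures once origin and treatment are fitted. For doxycycline this is how far the change varied from origin to origin.

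The 46 members, the list of 85 other genes and the markers were chosen with earlier results of these data known. All members are accounted for by role. Values are given for members called with doxycycline or, where fewer than 8 were called, the 8 of smallest p, for up to 8 members called between origins, for the member of highest TPM in each role, for all Frizzled, TCF, LEF and R-spondin receptor genes, for up to 10 other pathway genes called, and for FEZF1 and FEZF1-AS1. Further members named with values (such as FZD4, LGR5, SFRP1, AXIN2 and WNT5B) and COL3A1 and EPCAM were chosen after their values were seen.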

Additional observations from a re-analysis of the deposited data

Results flagged for a closer look

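Of 82 groups of 4 libraries looked at (each member tested, FEZF1 and FEZF1-AS1, in controls and with doxycycline), 7 held a library that stood far from the 3 others. By chance about 1 group in 20 would, or 4.1 of these. FZD2 was at 30.5 CPM in the control of clone 3 against 23.6 to 23.7 in the other controls. DVL2 was at 107.6 CPM in the same library against 91.9 to 92.9. TCF7 was at 7.94 CPM in the control of clone 5 against 6.03 to 6.33. With doxycycline the polyclonal population stood apart for LRP6 (148 CPM against 117 to 122) and DVL1 (35.7 CPM against 31.1 to 31.6). In clone 3 with doxycycline APC reached 115.6 CPM, against 81.7 to 84.6 in the other origins, and in clone 5 with doxycycline LEF1 reached 0.896 CPM, against 0.491 to 0.523. None of these 7 genes was called with doxycycline.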

How the results depend on the processing

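The main fit has origin as a replicate block, and 1221 genes, 6 members and 8 other pathway genes were called in it. With no replicate block edgeR called 1 gene, 0 members (7 at an unadjusted p under 0.05) and 0 other pathway genes, and FEZF1 missed the threshold (-0.80, adjusted p = 0.290). DESeq2 without the block, chosen after seeing the data, called 231 genes, 0 members (7 at an unadjusted p under 0.05) and 1 other pathway gene, and FEZF1 passed (-0.81, adjusted p = 0.0157). DESeq2 with the block called 1920 of 15993 genes (12%) and 9 of 39 members. Between origins it called 6713 genes and 20 members, against 6300 and 11 in the main fit. A filter at 1 count in any library gave 10 of 46 members (adding FZD4, LRP5, LRP6 and WNT5B) and 1472 of 27478 genes (5.36%). Between origins it gave 18 members and 7152 genes. WNT5B had matched reads only in the doxycycline cultures of the polyclonal population and clone 3, with 27.2% of its reads matched. Leaving out each pair gave 175 to 699 genes (1.09% to 4.44%), 3 to 4 members, 1 to 4 other pathway genes and 2970 to 5300 genes between origins, fits with fewer samples. The fewest genes, 175, were called without the pair of clone 5. That fit called 3 members (APCDD1, DKK3 and LGR4 were lost) and 1 other pathway gene. Between origins it called 4080 genes and 8 members. DKK2, FZD1 and SFRP2 were called in every fit with the block, and FEZF1 too. DESeq2's size factors and the effective length offset kept all 6 member calls. Members at or above 1 TPM numbered 33, with 32 to 34 when an origin was left out, 37 at 0.5 TPM and 30 at 2 TPM. Members not called changed sign in 14 cases over 11 genes, all but 1 of them with a pair left out. WNT10B was 0.43 by DESeq2 with the block against -0.03. With each pair left out the log2 fold change ranged from -0.85 to 1.08 for WNT10B, -0.19 to 0.15 for WNT3, -0.020 to 0.17 for PORCN, -0.049 to 0.31 for FZD5, -0.089 to 0.088 for FZD7, -0.036 to 0.11 for DVL1, -0.063 to 0.030 for CTNNB1, -0.044 to 0.12 for APC, -0.052 to 0.031 for AXIN1, -0.16 to 0.061 for NKD1 and -0.10 to 0.044 for TCF7L2. The cause of these shifts was not tested. For members with few reads, such as LEF1 (9 to 39 per library), WNT10B and WNT11, depth limits what could be detected.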

Other observations

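Transcripts of 1 member did not all carry the same share of its level. LRP6 was listed with 2 matched transcripts, NM_002336.3 at 17.3 ± 3.33 TPM in the controls and 12.7 ± 2.65 with doxycycline, and the non-coding XR_002957325.1 at 9.36 ± 2.35 and 8.77 ± 0.866 TPM. DKK3 came almost whole (95.1% of its control TPM) from the predicted transcript XM_006718178.2, with its 4 curated transcripts listed at 0. The control TPM of TCF7L2 was spread over 10 transcripts, the first of which held 18.3%. Among the widely used targets outside the 46 members, CCND1, which encodes cyclin D1, stood at 966 TPM in the controls, above every member. These values were read after the data were seen, and no test was run on them.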
